A study of Homo sapiens with 10 samples.

Results

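The solute carriers of families 1 to 22 are the genes whose symbol begins with SLC and a family number of 1 to 22, together with the SLCO organic anion transporters of family 21, and their H3K27ac was read here across 3 treatment groups. Members were chosen by symbol alone: all regions of the deposited annotated table that carry such a symbol were taken, which gave 506 of 67387 annotated regions and 95 of 15633 annotated genes. H3K27ac is an acetyl group on lysine 27 of histone H3 and is found at promoters and enhancers in use. It was read by ChIP-seq, which sequences the DNA pulled down with an antibody to the mark, in NCI-H1975, an established human lung adenocarcinoma line with mutant EGFR. All cells shared this line, medium and fixation, and each group had 3 biological replicates. The DMSO group grew drug-free for 21 days and then received DMSO for 3 days. The osimertinib DTP group was held for 24 days in osimertinib, a drug that blocks mutant EGFR, at 500 nM. The osimertinib DTP + AZD5153 group had 21 days of the same osimertinib dose and then 3 days of AZD5153 at 150 nM, an inhibitor of the acetyl-lysine readers of the BET family. The labels do not say whether osimertinib was kept during those last days, so the osimertinib DTP + AZD5153 group may differ from the osimertinib DTP group by the presence of one drug, the absence of the other, or both. A single cell line stands behind all values, and fewer cells with the mark cannot be told apart from less mark per cell.

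Solute carriers are membrane proteins that move nutrients, ions, metabolites and drugs across the plasma membrane and the membranes of organelles. Some run downhill, as the GLUT glucose carriers of family 2 do, some couple uptake to sodium or protons, and others swap one substrate for another. Several work only with a partner chain: the light chains of family 7, which exchange amino acids, sit at the cell surface bound to SLC3A2, and the lactate carriers SLC16A1 and SLC16A3 need basigin, encoded by BSG. In lung epithelium and in tumours derived from it, carriers of glucose, glutamine, cystine, lactate and bicarbonate are known for feeding growth and holding cell pH.

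The promoters shown here are those of 5 genes described below, although most called regions lay beyond promoters. They are SLC7A7, which was called higher at its start and in other regions, and SLC3A2, the chain that SLC7A7 needs, whose promoter was not called. The other 3 are genes whose called promoter region covered or lay close to the start. RefSeq (GRCh38.p14) held a promoter for 71 of the 95 genes, and the 120 bases before the start are printed 5′ to 3′ on the strand of the gene. Capitals mark matches, on either strand, to 5 short motifs: the antioxidant response element TGACNNNGC, the C/EBP-ATF response element TGATGNAA, the E-box CACGTG, the AP-1 site TGANTCA and the TEAD site GGAATG.
SLC7A7, chr14:22819792-22819911, minus strand: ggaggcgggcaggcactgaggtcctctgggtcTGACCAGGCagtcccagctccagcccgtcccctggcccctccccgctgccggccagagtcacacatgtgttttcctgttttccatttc
SLC3A2, chr11:62881579-62881698, plus strand: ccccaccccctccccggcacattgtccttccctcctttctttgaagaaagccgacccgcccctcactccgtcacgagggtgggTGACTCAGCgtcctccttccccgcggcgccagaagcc
SLC1A4, chr2:64988359-64988478, plus strand: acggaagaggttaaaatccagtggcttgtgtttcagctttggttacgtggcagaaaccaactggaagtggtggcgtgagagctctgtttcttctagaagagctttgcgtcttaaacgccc
SLC16A9, chr10:59710080-59710199, minus strand: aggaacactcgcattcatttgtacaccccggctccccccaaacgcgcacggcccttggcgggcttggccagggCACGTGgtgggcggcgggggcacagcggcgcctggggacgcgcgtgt
SLC9C1, chr3:112294217-112294336, minus strand: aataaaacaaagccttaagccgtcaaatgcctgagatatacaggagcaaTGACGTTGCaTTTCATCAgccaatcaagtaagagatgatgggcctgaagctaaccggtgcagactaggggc
The match in SLC7A7 ran from 88 to 80 bases before the start and was to the antioxidant response element, which 10.9% of all 35116 RefSeq promoters also held within 250 bases before the start. In SLC3A2 an AP-1 site, held by 6.57% of all promoters, and an antioxidant response element overlapped from 37 bases before the start. SLC9C1 held an antioxidant response element from 71 to 63 bases and a C/EBP-ATF element from 61 to 54 bases before the start without overlap, and the second of these was held by 3.14% of all promoters. SLC16A9 held an E-box, as did 6.34% of all promoters, and the window of SLC1A4 held no match. Of the 71 member promoters, 10 (14.1%) held the antioxidant response element, 9 (12.7%) the AP-1 site, 7 (9.86%) each the C/EBP-ATF element and the E-box, and 8 (11.3%) the TEAD site, which 11.9% of all promoters held. These matches are a description of letters and not of bound factors.

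The 506 regions, each 502 bp long, held 0.476 to 0.550% of the counts of each library, whose totals over all regions ranged from 6263443 to 10463351. A region was assigned by the authors' annotation to the gene with the nearest start, which does not show that it acts on that gene. Of the regions, 163 lay at promoters within 1 kb of a start, 66 at 1 to 3 kb, 165 in introns, 81 in distal intergenic sequence and 31 in exons, UTRs or just downstream. Inorganic ion carriers took 154 regions in 27 genes, amino acid carriers 111 in 19, organic anion carriers 91 in 16, carriers of glucose and other sugars 75 in 13, carriers of organic cations and amines 22 in 7, and carriers of other or unknown substrates 53 in 13. The authors' peak lists, called per library, covered 183 of the regions in all 9 libraries and every region in at least 1. As a check of the line, all 7 epithelial markers had an acetylated promoter, at a mean of 11.5 (KRT18) and 15.9 (CDH1) up to 70.6 CPM (KRT8). CPM are counts-per-million after TMM scaling of the library size. Among markers of other lineages, CD3E, MS4A1 and PTPRC had no region. Promoters of CDH5, PDGFRA and COL1A2 were acetylated at a mean of 17.1, 18 and 7.44 CPM. CDH5 and PDGFRA thus lay above KRT18 and CDH1, and the promoter levels did not separate epithelial markers from those of other lineages. In osimertinib DTP, 4 of the 88 regions of the epithelial markers were called higher and 7 lower, with 1 higher and 1 lower of the 19 regions of the other markers. Under osimertinib DTP + AZD5153 these counts were 8 and 14, and 3 and 4. The COL1A2 promoter was among those called higher, at 1.79 ± 1.43 CPM in DMSO and 14.7 ± 16 under osimertinib DTP + AZD5153 (SD, n = 3, overlapping groups), with a log2 fold change of 3.01 ± 0.84 (adjusted p = 0.0205, or 0.0712 with the replicate number as a block, 0.11 without DMSO replicate 2 and 0.105 without DMSO replicate 3). The part of these moves in the results on solute carriers was not tested.

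Libraries stood apart in ways that touch the results. Replicate 3 of osimertinib DTP + AZD5153 had the smallest total, 9139 of all regions at 0, and rank correlations of only 0.354 to 0.430 with the other libraries of its group, against at least 0.818 in the DMSO and osimertinib DTP groups. In this library and in replicate 2 of osimertinib DTP, the promoters of the members took 3099 and 3030 raw CPM (scaled by the library total without TMM), while the other 7 libraries ranged from 1805 to 1972. The part of this promoter-rich profile in the promoter results was not tested.

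Against DMSO, acetylation at solute carriers moved in both directions. Amino acid carriers such as SLC7A7, SLC7A10, SLC7A8 and SLC1A7 held more of the regions that rose than any other substrate class. Organic anion carriers such as SLC16A1 and SLCO2A1 held more of those that fell than any other class. The difference between classes was not tested. In osimertinib DTP, 68 of the 506 regions (13.4%) passed an adjusted p under 0.05 in edgeR's quasi-likelihood test across all 157919 tested regions, 41 of them higher and 27 lower, in 35 genes. Of all tested regions 10.7% were called, and of all annotated regions 6.98% were called higher and 7.22% lower, against 8.10% and 5.34% of the members. In osimertinib DTP + AZD5153, 64 regions were higher and 46 lower, together 110 in 47 genes, where 18.1% of all tested regions were called and 10.7% of annotated regions were called higher and 11.1% lower. The 2 treated groups share the DMSO libraries. Side by side, 39 regions were called higher and 26 lower in both, 3 only in osimertinib DTP, 45 only in osimertinib DTP + AZD5153, 393 in neither, and none in opposite directions.

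The log2 fold changes of the called regions ran from 1.74 to 4.76 upward and from -1.81 to -3.95 downward in osimertinib DTP. All 68 of these regions had groups that did not overlap by CPM, but the share over all called regions was not counted. The separation is therefore not read as particular to the members. The median log2 fold change was 0.04 over the members and 0.15 over all tested regions under osimertinib DTP, against -0.00 and 0.23 respectively under osimertinib DTP + AZD5153. Without TMM scaling the median of all regions was 0.06 and -0.02, and with a loess offset 0.09 and 0.32. The calls leaned on single libraries: of the 68, 2 stayed called without DMSO replicate 2, 12 without DMSO replicate 3 and 37 without DMSO replicate 1. Without osimertinib DTP replicates 1, 2 and 3, 37, 20 and 22 stayed called. All 68 kept their sign in each of these fits, which groups that do not overlap make nearly certain. Without osimertinib DTP + AZD5153 replicate 3, all 68 stayed and the count rose to 159, while 22942 higher and 20489 lower calls were made over all 161758 regions then tested. Of the 110 calls in osimertinib DTP + AZD5153, 36 stayed without DMSO replicate 2, 44 without DMSO replicate 3, 71 without DMSO replicate 1 and 106 of a new total of 183 without osimertinib DTP + AZD5153 replicate 3. In that last fit 29786 of all tested regions were called higher and 27986 lower.

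Most called regions lay beyond promoters. In osimertinib DTP, 9 of 163 promoter regions within 1 kb were called, 7 higher and 2 lower, beside 4.63% of all annotated promoter regions. Beyond 1 kb, 34 regions rose and 25 fell of 343, or 17.2%, beside 19.6% of all annotated regions there. Distal intergenic regions leaned downward, with 4 higher and 13 lower of 81 and a median log2 fold change of -0.64. All annotated distal regions leaned the same way, with 9.46% called higher and 12.8% lower and a median of -0.15. Of the 13, 4 lay in a single cluster of SLC16A1, so the lower calls are not all separate loci. The difference between members and all annotated distal regions was not tested. At promoters the median was 0.49, beside 0.35 over all annotated promoters, but without replicate 2 of osimertinib DTP the median of annotated promoters was -0.15 and 2 member promoters were called. In osimertinib DTP + AZD5153, 17 promoter regions were called, 15 of them higher, beside 8.5% of all annotated promoters, and 93 regions beyond 1 kb, 49 higher and 44 lower, beside 29.3%. Without replicate 3 of that group the promoter calls were 21 higher and 19 lower, beside 2029 higher and 2295 lower of all 24296 annotated promoter regions. Beyond promoters the balance of higher and lower calls moved with the scaling: it was 44 to 49 without TMM scaling and 56 to 44 with the loess offset.

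**Figure D1:**
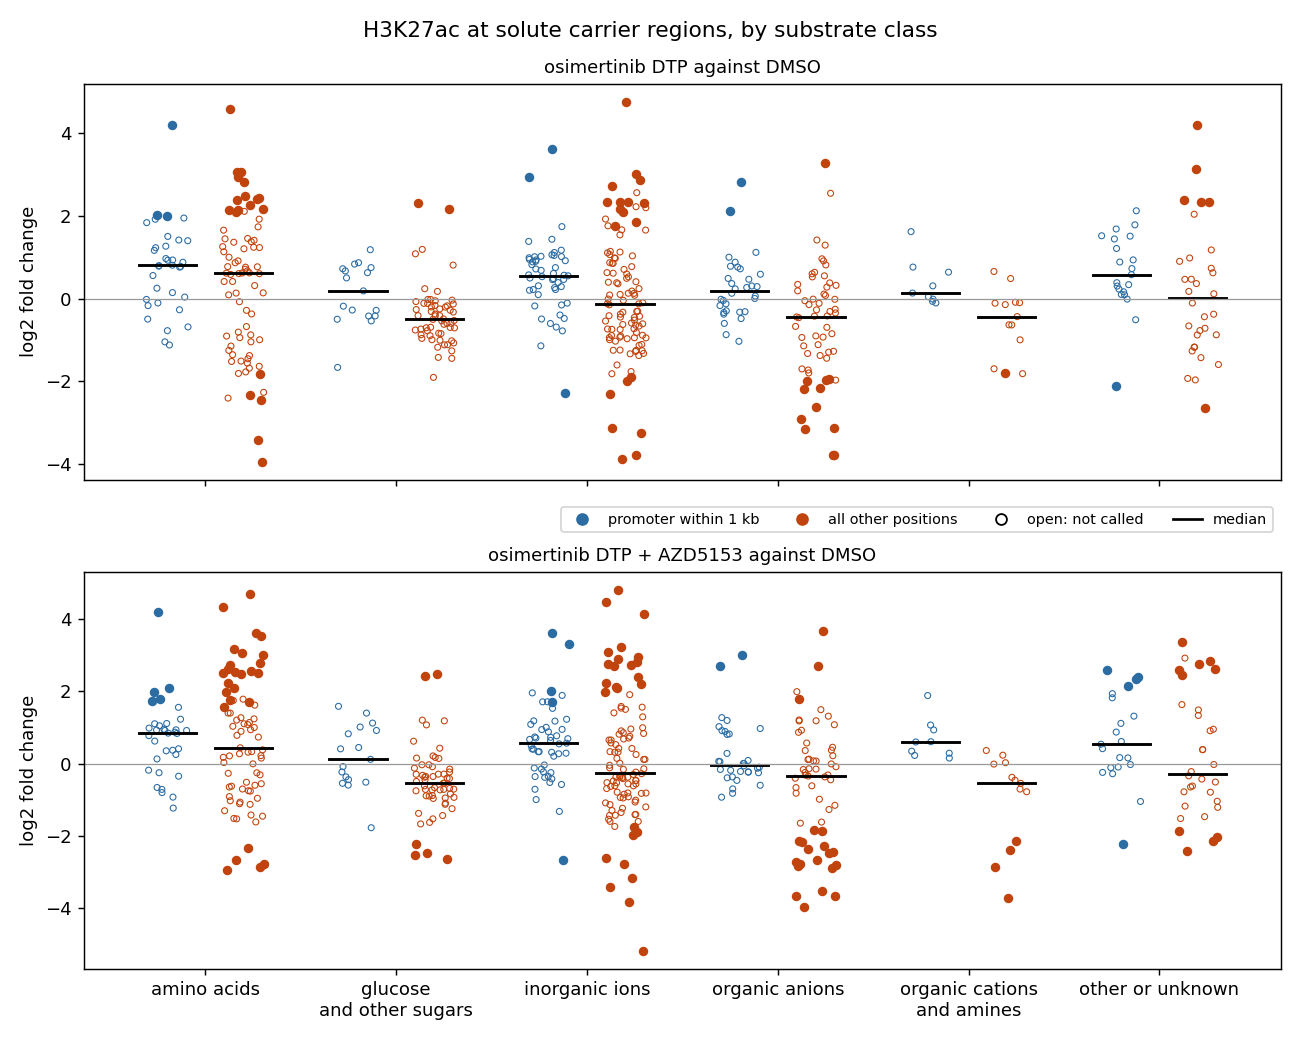
Log2 fold change against DMSO (vertical axis) of all 506 solute carrier regions by substrate class, with osimertinib DTP above and osimertinib DTP + AZD5153 below. Blue points are promoter regions within 1 kb, orange points all other regions, filled points are called at an adjusted p under 0.05, and bars are medians. Amino acid regions lie mostly above 0 (73 of 111 in osimertinib DTP) and sugar regions mostly below 0 (59 of 75), while filled points of the organic anion class lie mostly below 0.

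Amino acid carriers rose more often than they fell: 17 regions were called higher (15.3%) and 5 lower (4.5%) of 111 in osimertinib DTP. Under osimertinib DTP + AZD5153 26 were higher (23.4%) and 5 lower (4.5%), and the medians were 0.71 and 0.78 on the log2 scale. Of all annotated regions, 6.98% and 7.22% were called higher and lower in osimertinib DTP, with 10.7% and 11.1% under osimertinib DTP + AZD5153. The regions of amino acid carriers together took 957, 911 and 936 raw CPM in DMSO, 1034, 1263 and 1074 under osimertinib DTP and then 1147, 1144 and 1206 under osimertinib DTP + AZD5153. No DMSO library reached a treated one in this sum. Beyond 1 kb the levels were 510.1, 480.5 and 516.1 in DMSO, 543.3, 527.1 and 586.2 under osimertinib DTP and then 684.9, 675.7 and 490.5 under osimertinib DTP + AZD5153. There the promoter-rich replicate 3 of that last group, at 715.7 raw CPM at promoters, overlapped DMSO. The higher calls outnumbered the lower ones in every scaling tried, but without DMSO replicate 3 the calls in osimertinib DTP were 1 higher and 2 lower.

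SLC7A7, the light chain y+LAT1 that exports cationic amino acids in exchange for neutral ones, had 15 regions. Their summed level was 49.1, 47.5 and 40.4 CPM in DMSO, 86.6, 164 and 147 under osimertinib DTP and then 116, 182 and 126 under osimertinib DTP + AZD5153. Every treated library lay above every DMSO library. All 15 regions had positive log2 fold changes in both comparisons, although 14 did in osimertinib DTP + AZD5153 without TMM scaling. Of them, 7 were called higher in osimertinib DTP, against 9 under osimertinib DTP + AZD5153. With the replicate number as a block 5 and 8 were called, the losses being the start (below) in both and, in osimertinib DTP, the intron chr14:22790297-22790798 (adjusted p = 0.0621). Without DMSO replicate 2 these counts were 0 and 4, and without DMSO replicate 3 they were 0 and 3. The largest change was in an intron at chr14:22790875-22791376, -10400 bp from the nearest start (negative distances are upstream), at 0.453, 0.826 and 0.503 CPM in DMSO, 2.29, 5.15 and 7.55 under osimertinib DTP and then 6.01, 10.6 and 4.25 under osimertinib DTP + AZD5153. The groups did not overlap, and the log2 fold changes were 3.05 ± 0.67 (SE, adjusted p = 0.00996) and 3.53 ± 0.67 (adjusted p = 0.00302). The first call was lost without any one DMSO replicate or without osimertinib DTP replicate 3, with adjusted p up to 0.0719, and the second was kept in all 9 such fits.

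At the SLC7A7 start printed above, the region chr14:22819688-22820189 held 4.35, 3.82 and 2.92 CPM in DMSO, 7.55, 21.8 and 15.2 under osimertinib DTP and then 7.21, 14.8 and 14.9 under osimertinib DTP + AZD5153. All treated libraries were higher than all DMSO libraries, with log2 fold changes of 2.00 ± 0.58 (adjusted p = 0.0347) and 1.73 ± 0.58 (adjusted p = 0.0454). The first was lost without any DMSO replicate or osimertinib DTP replicate 2 or 3 (adjusted p up to 0.186, without DMSO replicate 3, and 0.119 without the promoter-rich replicate 2) and with the replicate number as a block (adjusted p = 0.0522). The second was lost in 7 of the 9 fits, all but those without osimertinib DTP replicate 2 or osimertinib DTP + AZD5153 replicate 3 (up to 0.207, without DMSO replicate 3), and with the block (adjusted p = 0.0602). SLC3A2, the heavy chain that SLC7A7 shares with the other exchangers, had a high promoter level, at 42.1, 48.1 and 34.4 CPM in DMSO, 53.3, 109 and 48.9 under osimertinib DTP and then 73.7, 81.0 and 138 under osimertinib DTP + AZD5153. Neither comparison passed the test there, with log2 fold changes of 0.76 ± 0.49 (adjusted p = 0.359) and 1.23 ± 0.49 (adjusted p = 0.0913), although the groups did not overlap.

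SLC7A10, the light chain Asc-1 that carries small neutral amino acids, rose at both of its called regions. Its flank at chr19:33227051-33227552, -1201 bp from the start, held 1.27, 1.76 and 0.603 CPM in DMSO, 10.0, 58.9 and 18.8 under osimertinib DTP and then 17.9, 35.4 and 42.9 under osimertinib DTP + AZD5153. Each treated library was at least several times above the highest DMSO library. The log2 fold changes were 4.58 ± 0.76 (adjusted p = 0.00371) and 4.71 ± 0.76 (adjusted p = 0.00155), and both calls stood in all 9 fits without 1 library. Its promoter at -472 bp rose as well, by 4.19 (adjusted p = 0.00943) and 4.21 (adjusted p = 0.00562). The first of these was lost without DMSO replicate 2, DMSO replicate 3 or osimertinib DTP replicate 2, with adjusted p from 0.0538 to 0.0735.

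SLC7A8, the neutral amino acid exchanger LAT2, rose in an intron at chr14:23141762-23142263 from 1.9, 0.826 and 0.302 CPM in DMSO to 8.03, 10.4 and 7.35 under osimertinib DTP and then 30.7, 21.8 and 10.8 under osimertinib DTP + AZD5153. The 3 groups did not overlap. The log2 fold changes were 3.06 ± 0.68 (adjusted p = 0.0108) and 4.36 ± 0.71 (adjusted p = 0.00158), the first lost without DMSO replicate 2 or 3 (adjusted p = 0.0850 and 0.0805). SLC1A7, a glutamate transporter best known from retina, had no promoter region and rose in 3 of its 6 regions under osimertinib DTP and in 5 under osimertinib DTP + AZD5153, with a summed level of 22.7, 21.5 and 19.0 CPM in DMSO, 50.7, 83.5 and 60.8 under osimertinib DTP and then 64.7, 75.3 and 65.7 under osimertinib DTP + AZD5153. The 3 calls in osimertinib DTP were lost without DMSO replicate 2 or 3, where none of its regions was called and 2 stayed called in osimertinib DTP + AZD5153. With the replicate block 4 of the 5 calls under osimertinib DTP + AZD5153 stayed (adjusted p = 0.0510 for the other). SLC7A5, the large neutral amino acid exchanger LAT1, had no region within 1 kb but one at -1710 bp that rose, at 3.99, 4.23 and 5.03 CPM in DMSO, 10.5, 30.9 and 15.5 under osimertinib DTP and then 20.0, 30.6 and 24.7 under osimertinib DTP + AZD5153, by 2.10 (adjusted p = 0.0246) and 2.5 (adjusted p = 0.00715). The first was lost without any DMSO replicate or osimertinib DTP replicate 2 or 3 (adjusted p up to 0.133, without DMSO replicate 2), and the second without DMSO replicate 2 (adjusted p = 0.0557).

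SLC1A4, the neutral amino acid transporter ASCT1, was called at its start in osimertinib DTP + AZD5153. The region chr2:64988474-64988975 held 6.98, 11.9 and 9.15 CPM in DMSO, 18.2, 73.5 and 16.4 under osimertinib DTP and then 22.9, 20.4 and 76.9 under osimertinib DTP + AZD5153. The highest library of each treated group was its promoter-rich one, and the other treated libraries were also above DMSO. The log2 fold changes were 1.94 ± 0.68 (adjusted p = 0.0737) and 2.10 ± 0.68 (adjusted p = 0.0411), the second lost without any DMSO replicate (adjusted p up to 0.153) or the promoter-rich osimertinib DTP + AZD5153 replicate 3 (adjusted p = 0.0868) and with the replicate block (adjusted p = 0.0648). The glutamine carrier SLC1A5 and the cystine exchanger SLC7A11 had promoters at 16.6 ± 0.5 and 15.5 ± 3.9 CPM (SD, n = 3) in DMSO, 30.5 ± 22.1 and 13.8 ± 3.9 under osimertinib DTP, then 22.1 ± 22.1 and 12.9 ± 8.3 under osimertinib DTP + AZD5153, and neither passed the test in a comparison.

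Among amino acid carriers that fell, SLC6A9, the glycine transporter GLYT1, had 3 called regions in each comparison. In its intron at chr1:44025082-44025583 the level was 3.72, 6.82 and 5.03 CPM in DMSO, 0.478, 0.278 and 0.201 under osimertinib DTP and then 0.902, 0.465 and 0.580 under osimertinib DTP + AZD5153, with log2 fold changes of -3.95 ± 0.70 (adjusted p = 0.00415) and -2.95 ± 0.66 (adjusted p = 0.00647). The groups stood apart, and without DMSO replicate 2 the adjusted p was 0.0504 and 0.0541. SLC7A1, the cationic amino acid importer CAT1, fell in an intron at chr13:29582977-29583478, from 6.80, 15.8 and 8.45 CPM in DMSO to 1.43, 2.5 and 1.71 under osimertinib DTP and then 1.5, 2.09 and 0.773 under osimertinib DTP + AZD5153. Its log2 fold changes were -2.46 (adjusted p = 0.0157) and -2.79 (adjusted p = 0.00595), both lost without DMSO replicate 2 (adjusted p = 0.133 and 0.0521), and the first also without DMSO replicate 3 or any osimertinib DTP replicate (up to 0.0929). At its promoter, by contrast, the level was 15.8 ± 4.5, 23.3 ± 22.4 and 30.0 ± 24.3 CPM (SD, n = 3) with no call.

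SLC6A6, the taurine transporter, had 25 regions, the most of the amino acid class. Their sum was 270, 319 and 312 CPM in DMSO, 170, 218 and 125 under osimertinib DTP and then 215, 198 and 329 under osimertinib DTP + AZD5153. The osimertinib DTP libraries lay below DMSO, and the osimertinib DTP + AZD5153 libraries overlapped both groups. A single region, in an intron at 3090 bp, was called lower in osimertinib DTP (log2 fold change -2.32, adjusted p = 0.0219, lost without DMSO replicate 2 or 3 or osimertinib DTP replicate 2 or 3, up to 0.112) and none under osimertinib DTP + AZD5153. With replicate 3 of that last group left out, 12 regions were called lower in each comparison. That fit called more regions in general, with 20489 and 27986 of all 161758 tested regions lower in the 2 comparisons.

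**Figure D2:**
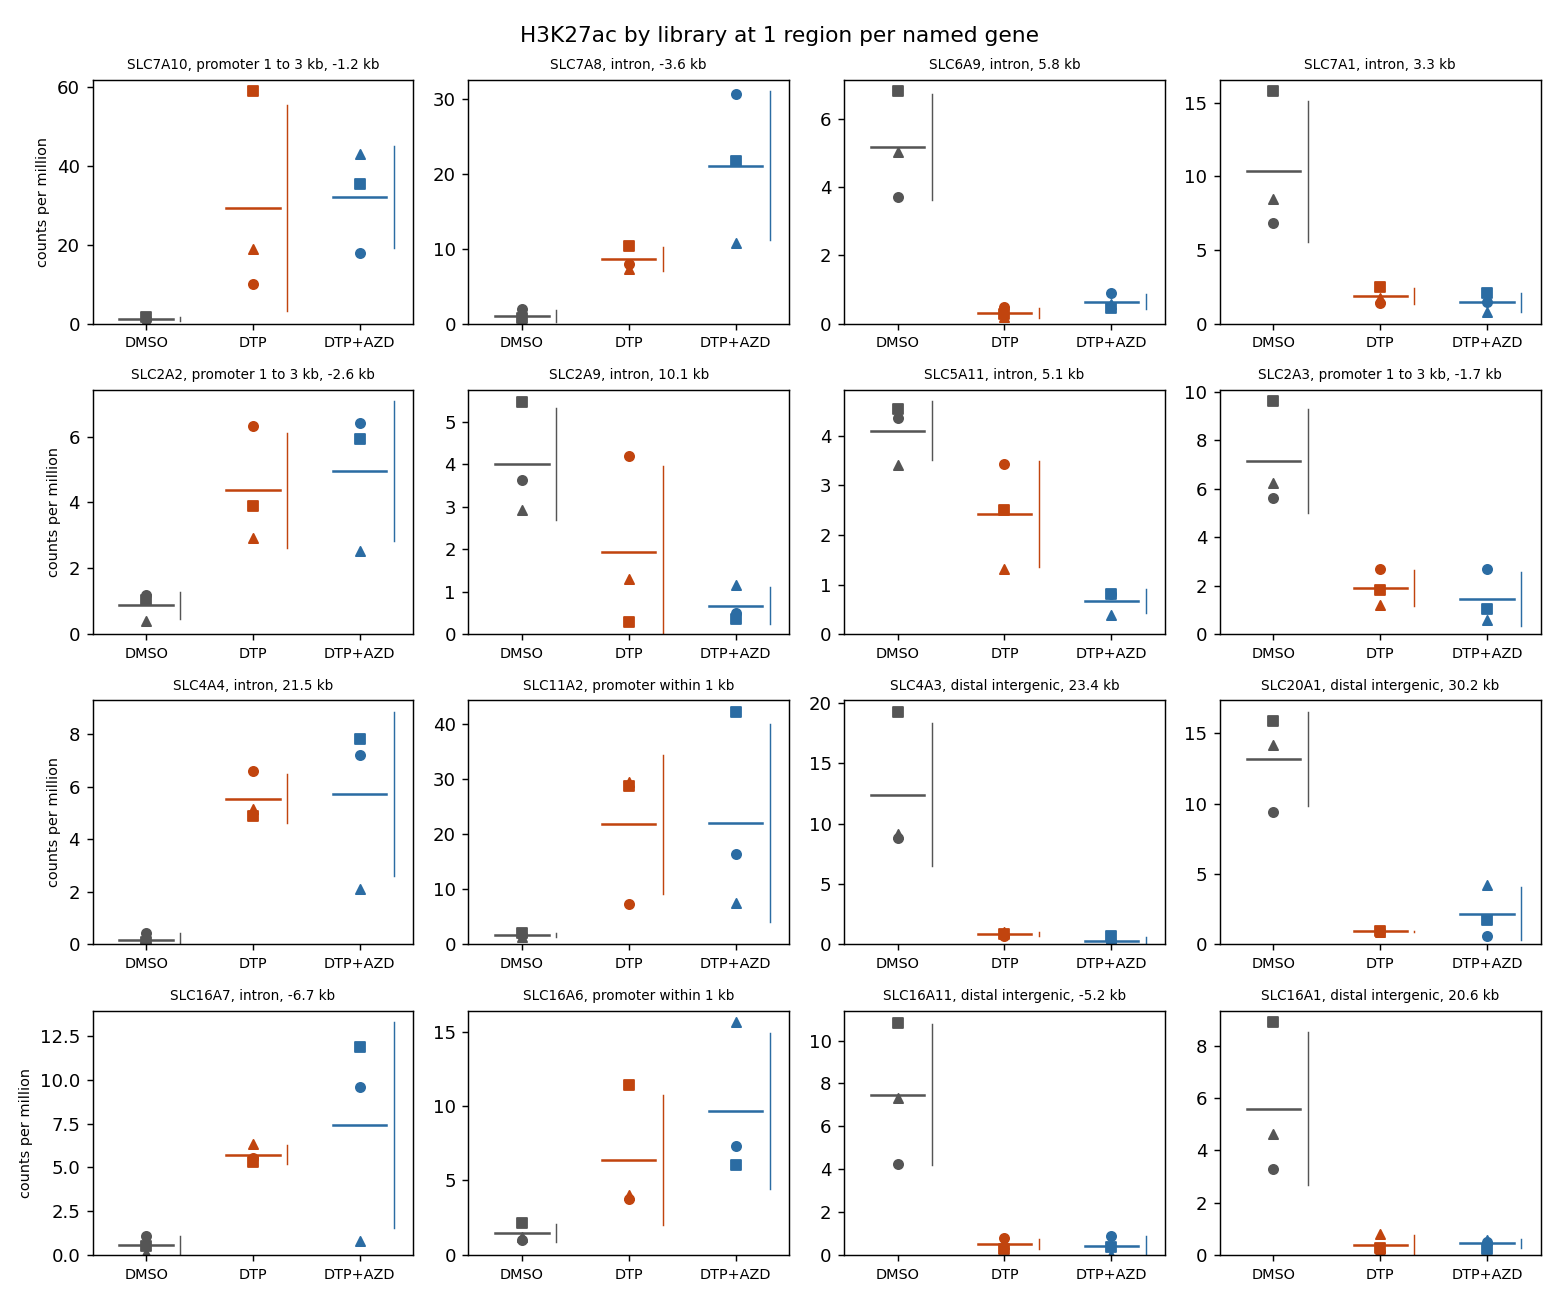
H3K27ac in CPM (linear vertical axes from 0) by library at 16 regions of the 4 main substrate classes, 1 region per gene, with its position and its distance to the nearest start. Circles, squares and triangles are replicates 1, 2 and 3, horizontal bars are means and vertical bars are ± 1 SD (n = 3), with osimertinib DTP shortened to DTP and AZD5153 to AZD. In the SLC20A1 panel DMSO lies at 9.43 to 15.9 and osimertinib DTP at 0.906 to 0.974.

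Carriers of glucose and other sugars showed few called changes but a lower share of each treated library. Their 75 regions took 725, 815 and 829 raw CPM in DMSO, 617, 572 and 602 under osimertinib DTP and then 505, 551 and 580 under osimertinib DTP + AZD5153. Neither treated group overlapped DMSO. At promoters within 1 kb the groups did overlap, at 171.7 to 189.6 in DMSO, 143.2 to 222.2 under osimertinib DTP and 119.0 to 275.7 under osimertinib DTP + AZD5153. Beyond 1 kb all members together took 3101, 3470 and 3344 in DMSO and 2807, 2472 and 2913 under osimertinib DTP, also without overlap. Under osimertinib DTP + AZD5153 they took 2959, 3173 and 2163, which overlapped DMSO. In osimertinib DTP, 59 of the 75 log2 fold changes were negative, with a median of -0.41 beside 0.15 over all tested regions, yet 2 regions were called higher and none lower. In osimertinib DTP + AZD5153, 2 were called higher and 4 lower, with a median of -0.41 beside 0.23. The calls were 2.67 and 8% of the class in the 2 comparisons, beside 14.2 and 21.8% of all annotated regions. Without replicate 3 of osimertinib DTP + AZD5153, 7 and 15 of the 75 sugar carrier regions were called lower. In that fit 20489 and 27986 of all 161758 tested regions were called lower, so the gain in calls was not particular to the class.

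SLC2A1, the widespread glucose carrier GLUT1, had 31 regions, the most of any member, and none was called. Its summed level was 327, 412 and 407 CPM in DMSO, 289, 365 and 290 under osimertinib DTP and then 219, 261 and 437 under osimertinib DTP + AZD5153, so that the groups overlapped. Its highest promoter region, chr1:42942321-42942822, lay 416 bp from the nearest annotated start. This start was not the RefSeq start at chr1:42958868, which another region, chr1:42958471-42958972, covered. The first region held 28.1, 39.1 and 29.6 CPM in DMSO, 21.4, 21.3 and 25.8 under osimertinib DTP and then 22.2, 25.4 and 27.3 under osimertinib DTP + AZD5153, with adjusted p of 0.566 and 0.639. Here each treated library lay below each DMSO library, a separation that the test did not pass. Without osimertinib DTP + AZD5153 replicate 3, 2 of the 31 regions were called lower in osimertinib DTP and 8 with the remaining AZD5153 libraries, in the fit where calls rose over all regions as given above.

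SLC2A3, the high-affinity glucose carrier GLUT3, had 10 regions, all with negative log2 fold changes in both comparisons, and a summed level of 67.7, 86.6 and 64.4 CPM in DMSO, 46.8, 43.7 and 30.0 under osimertinib DTP and then 58.1, 34.6 and 35.0 under osimertinib DTP + AZD5153. All treated libraries lay below DMSO. The region at -1688 bp, chr12:7937875-7938376, was called lower in osimertinib DTP + AZD5153 (log2 fold change -2.25 ± 0.64, adjusted p = 0.0221), at 5.62, 9.60 and 6.24 CPM in DMSO, 2.68, 1.81 and 1.21 under osimertinib DTP and then 2.71, 1.05 and 0.580 under osimertinib DTP + AZD5153. This call was lost without DMSO replicate 2 (adjusted p = 0.106), DMSO replicate 3 (0.0653) or osimertinib DTP + AZD5153 replicate 2 (0.0624). In osimertinib DTP the adjusted p was 0.0576. The rises of the class were both in SLC2A2, the glucose carrier GLUT2 of liver and beta cells, at -1853 and -2551 bp, where log2 fold changes were 2.16 and 2.31 in osimertinib DTP (adjusted p = 0.0204 and 0.0291) and 2.44 and 2.5 under osimertinib DTP + AZD5153 (adjusted p = 0.00740 and 0.0137). All 4 calls were lost without DMSO replicate 2 or 3, with adjusted p up to 0.175, both in osimertinib DTP also without DMSO replicate 1 or osimertinib DTP replicate 1 or 2 (up to 0.105), and that at -2551 bp also without osimertinib DTP replicate 3 (0.0569) or osimertinib DTP + AZD5153 replicate 1 (0.0508). SLC5A11, a sodium-coupled inositol carrier, fell in 2 introns in osimertinib DTP + AZD5153, by -2.48 (adjusted p = 0.00688) and -2.55 (adjusted p = 0.0123, or 0.0589 without DMSO replicate 2). In osimertinib DTP the adjusted p there was 0.135 and 0.457.

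**Figure D3:**
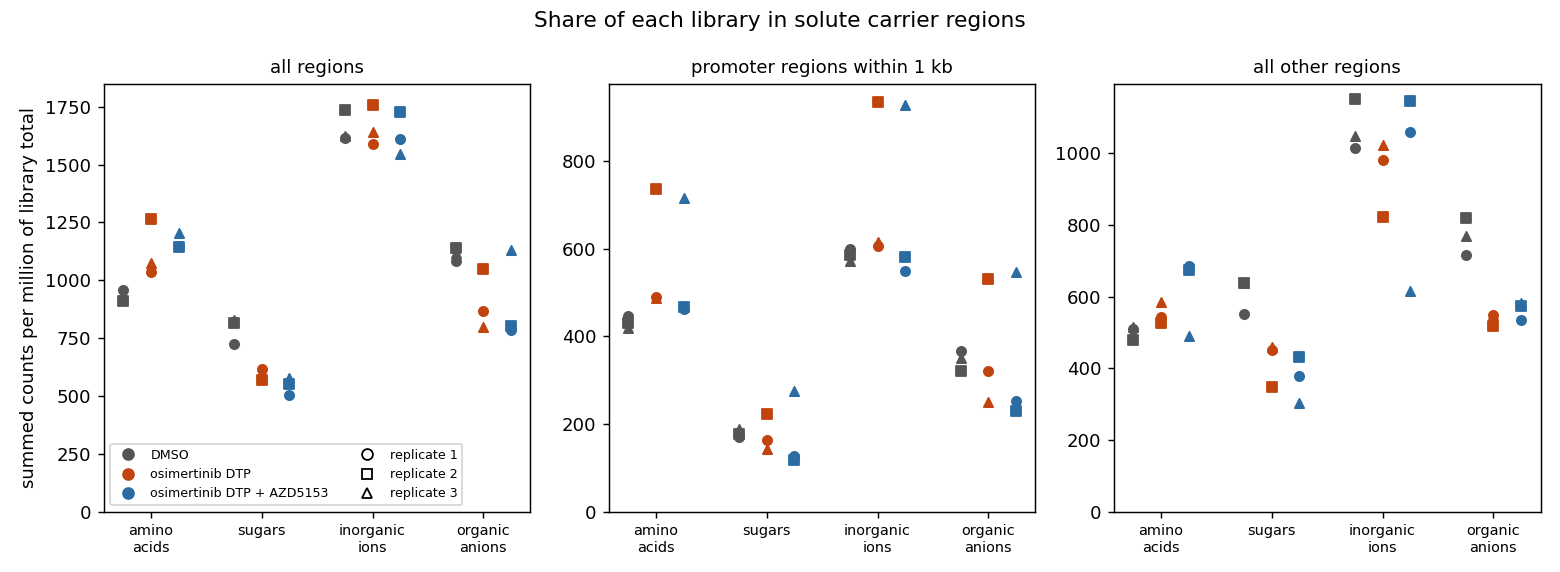
Summed level of solute carrier regions in raw CPM (linear axes from 0) for the 4 main classes, over all regions, promoters within 1 kb and all other regions. Colours are groups and shapes replicates; sugar carriers span 725 to 829 in DMSO and 505 to 617 in treated libraries, and replicate 2 of osimertinib DTP and replicate 3 of osimertinib DTP + AZD5153 stand above the rest at promoters.

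Carriers of inorganic ions had 14 regions called higher and 8 lower of 154 in osimertinib DTP, against 21 higher and 10 lower under osimertinib DTP + AZD5153. These were 14.3 and 20.1% of the class, close to the 14.2 and 21.8% called of all annotated regions. The medians were 0.23 in both, beside 0.15 and 0.23 over all tested regions. Without DMSO replicate 1, 2 or 3 the calls in osimertinib DTP were 5 and 6, 0 and 1, and 2 and 3, higher and lower. Bicarbonate carriers stood at both ends of the class. SLC4A4, the sodium bicarbonate cotransporter NBCe1, had 9 regions with a summed level of 32.4, 37.8 and 31.4 CPM in DMSO, 64.8, 85.7 and 53.7 under osimertinib DTP and then 107, 85.6 and 130 under osimertinib DTP + AZD5153. Treated libraries were all above DMSO. In its intron at chr4:71208832-71209333 the level was 0.453, 0.103 and 0 CPM in DMSO, 6.60, 4.87 and 5.14 under osimertinib DTP and then 7.21, 7.80 and 2.13 under osimertinib DTP + AZD5153, with log2 fold changes of 4.76 ± 0.85 (adjusted p = 0.00438, or 0.0512 without DMSO replicate 2) and 4.81 ± 0.85 (adjusted p = 0.00214). The DMSO level here is that of 6 counts over 3 libraries, so the size of the fold depends on the prior count of the fit.

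SLC4A5, a second sodium bicarbonate cotransporter, rose in 2 neighbouring regions. At chr2:74293851-74294352 the level was 0.544, 0.310 and 0.302 CPM in DMSO, 2.68, 2.23 and 2.92 under osimertinib DTP and then 9.42, 9.66 and 7.92 under osimertinib DTP + AZD5153. The 3 groups were fully apart, with log2 fold changes of 2.71 (adjusted p = 0.0110) and 4.49 ± 0.62 (adjusted p = 0.00114). The first was lost without DMSO replicate 2 or 3 (adjusted p = 0.0849 and 0.0852) and the second in none of the 9 fits. The anion exchanger SLC4A3 moved the other way. It had 13 regions, none at its promoter, of which 3 were called lower in osimertinib DTP, against 4 under osimertinib DTP + AZD5153, all 22216 to 28973 bp from the nearest start. At chr2:219656698-219657199 the level was 8.80, 19.2 and 9.15 CPM in DMSO, 0.669, 0.835 and 1.01 under osimertinib DTP and then 0.2, 0.698 and 0 under osimertinib DTP + AZD5153, with log2 fold changes of -3.87 ± 0.71 (adjusted p = 0.00481) and -5.19 ± 0.79 (adjusted p = 0.00133). The groups did not overlap, and the first call was lost without DMSO replicate 2 (adjusted p = 0.0540).

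SLC11A2, the iron and metal ion importer DMT1, showed 2 kinds of promoter. The region with its highest level, over the start of 1 transcript, held 30.5, 44.4 and 39.5 CPM in DMSO, 23.6, 89.5 and 28.7 under osimertinib DTP and then 29.1, 35.6 and 97.2 under osimertinib DTP + AZD5153, and was not called (adjusted p = 0.811 and 0.616). A start further upstream, at chr12:51028469-51028970, held 1.72, 2.17 and 1.41 CPM in DMSO, 7.27, 28.7 and 29.5 under osimertinib DTP and then 16.3, 42.2 and 7.54 under osimertinib DTP + AZD5153. There every treated library was above DMSO, by 3.62 ± 0.74 (adjusted p = 0.00753) and 3.63 ± 0.74 (adjusted p = 0.00421) on the log2 scale. The first call was lost without DMSO replicate 2 or 3 (adjusted p = 0.0604 and 0.0560). SLC9C1, a member of the sodium proton exchanger family known from sperm, rose 302 bp inside its start, from 0.907, 0.929 and 0.402 CPM in DMSO to 6.02, 6.54 and 4.83 under osimertinib DTP and then 12.7, 6.52 and 3.29 under osimertinib DTP + AZD5153. The log2 fold changes were 2.93 ± 0.65 (adjusted p = 0.0105) and 3.32 ± 0.66 (adjusted p = 0.00359), the first lost without DMSO replicate 2 or 3 (adjusted p = 0.0669 and 0.0839).

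The cation chloride cotransporter family had members that rose and 1 that fell. SLC12A2, the sodium potassium chloride cotransporter NKCC1, had 3 regions, of which both distal ones were called higher in both comparisons. At 20377 bp the level was 1.27, 1.96 and 1.71 CPM in DMSO, 8.13, 7.93 and 8.76 under osimertinib DTP and then 9.92, 13.5 and 2.90 under osimertinib DTP + AZD5153, with log2 fold changes of 2.32 (adjusted p = 0.0230) and 2.42 (adjusted p = 0.0127). Both calls were lost without DMSO replicate 1, 2 or 3, with adjusted p up to 0.116 and 0.0707, and the first without any osimertinib DTP replicate too. Its promoter was not called (adjusted p = 0.370 and 0.207). SLC12A8, an outlying member of the same family, had 18 regions with sums of 192, 181 and 141 CPM in DMSO, 211, 309 and 222 under osimertinib DTP and then 252, 337 and 257 under osimertinib DTP + AZD5153. Treated libraries again lay above DMSO, and 3 regions were called in osimertinib DTP, against 5 under osimertinib DTP + AZD5153, all higher, within 7172 bp downstream of a start. Without DMSO replicate 2 or 3 none of them was called, and with the replicate block 2 of the 3 stayed in osimertinib DTP (adjusted p = 0.0515 for the other). SLC12A4, a potassium chloride cotransporter, was called lower in an intron at 3511 bp under osimertinib DTP + AZD5153, at 5.42 ± 1.02 CPM in DMSO and 1.48 ± 0.86 under osimertinib DTP + AZD5153 (SD, n = 3). Its log2 fold change there was -1.91 ± 0.64 (adjusted p = 0.0471), a call that stood without osimertinib DTP + AZD5153 replicate 3 and was lost without any other single library (adjusted p up to 0.183).

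The phosphate importer SLC20A1 fell away from its promoter. Its region at 30205 bp, chr2:112688568-112689069, held 9.43, 15.9 and 14.2 CPM in DMSO, 0.956, 0.974 and 0.906 under osimertinib DTP and then 0.601, 1.75 and 4.25 under osimertinib DTP + AZD5153. The groups were far apart, with log2 fold changes of -3.78 ± 0.69 (adjusted p = 0.00466) and -2.63 ± 0.65 (adjusted p = 0.0114). The call in osimertinib DTP stood in all 9 fits without 1 library, and the other was lost without DMSO replicate 2 or osimertinib DTP + AZD5153 replicate 1 (adjusted p = 0.0593 and 0.0528). Its promoter held 27.6 ± 6.0, 31.8 ± 29.8 and 36.5 ± 25 CPM (SD, n = 3) with no call.

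Organic anion carriers fell more often than they rose, with 3 regions higher (3.3%) and 11 lower (12.1%) of 91 in osimertinib DTP. Under osimertinib DTP + AZD5153 5 were higher (5.49%) and 18 lower (19.8%). Of all annotated regions, 6.98% and 7.22% were called higher and lower in osimertinib DTP, with 10.7% and 11.1% under osimertinib DTP + AZD5153. None of the lower calls of organic anion carriers lay at a promoter within 1 kb. Beyond 1 kb their regions took 716, 819 and 770 raw CPM in DMSO, 548, 519 and 548 under osimertinib DTP and then 534, 574 and 583 under osimertinib DTP + AZD5153. Neither treated group overlapped DMSO. The sum over all members beyond 1 kb, given above, also lay below DMSO in osimertinib DTP, while it overlapped DMSO under osimertinib DTP + AZD5153. The lower calls outnumbered the higher ones in each fit except that without DMSO replicate 2 in osimertinib DTP, where no region of the class was called.

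SLC16A1, the lactate carrier MCT1, had 7 regions, 2 at promoters and 5 in a distal cluster 16038 to 20615 bp from the nearest start. In the cluster 4 regions were called lower in osimertinib DTP, against 5 under osimertinib DTP + AZD5153. At chr1:112903546-112904047 the level was 10.8, 19.9 and 14.5 CPM in DMSO, 1.82, 0.974 and 2.22 under osimertinib DTP and then 3.21, 2.79 and 2.13 under osimertinib DTP + AZD5153, with log2 fold changes of -3.15 (adjusted p = 0.00474) and -2.46 (adjusted p = 0.00749). Treated and DMSO libraries did not overlap. The largest fall was at chr1:112901276-112901777, by -3.77 ± 0.78 (adjusted p = 0.00782) and -3.67 ± 0.78 (adjusted p = 0.00549). Its promoter held 13.5, 19.0 and 13.1 CPM in DMSO, 17.8, 50.0 and 9.67 under osimertinib DTP and then 18.6, 18.5 and 49.1 under osimertinib DTP + AZD5153, and was not called (adjusted p = 0.494 and 0.339). Without DMSO replicate 2 none of the 7 regions was called in either comparison, and the largest fall was not called in osimertinib DTP without osimertinib DTP replicate 2 (adjusted p = 0.0517). With the replicate block 4 of the 5 calls under osimertinib DTP + AZD5153 stayed (adjusted p = 0.0633 for the other). The related exporter SLC16A3, or MCT4, had 9 regions and no call, with sums of 98.0, 86.8 and 111 CPM in DMSO, 77.3, 167 and 65.9 under osimertinib DTP and then 31.0, 27.7 and 215 under osimertinib DTP + AZD5153. In each treated group the promoter-rich library was the highest of these.

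SLC16A7, the monocarboxylate importer MCT2, and SLC16A6, a carrier of ketone bodies and taurine, went up within 1 kb of an annotated start. The SLC16A7 region lay 92537 bp from the RefSeq start of the gene, so it marks another annotated start. At chr12:59596332-59596833, SLC16A7 held 2.54, 1.45 and 0.805 CPM in DMSO, 10.1, 20.9 and 3.42 under osimertinib DTP and then 12.2, 6.75 and 20.5 under osimertinib DTP + AZD5153. The groups did not overlap, with log2 fold changes of 2.82 ± 0.72 (adjusted p = 0.0204) and 3.02 ± 0.73 (adjusted p = 0.00990). The first was lost without DMSO replicate 2, DMSO replicate 3 or osimertinib DTP replicate 2 (adjusted p = 0.116, 0.124 and 0.107) and the second without DMSO replicate 2 or 3 (adjusted p = 0.0644 and 0.0695). SLC16A6 changed by 2.12 ± 0.65 (adjusted p = 0.0446) and 2.71 ± 0.66 (adjusted p = 0.0103), from 0.998, 2.17 and 1.21 CPM in DMSO to 3.73, 11.4 and 4.03 under osimertinib DTP and then 7.31, 6.05 and 15.7 under osimertinib DTP + AZD5153. The first SLC16A6 call was lost with the replicate block (adjusted p = 0.0558) and without any DMSO or osimertinib DTP replicate (up to 0.202, without the promoter-rich replicate 2). The second was lost without DMSO replicate 1 or 3 (adjusted p = 0.0559 and 0.0681) and stood without the promoter-rich osimertinib DTP + AZD5153 replicate 3 (adjusted p = 0.00377).

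SLCO2A1, the prostaglandin importer PGT, had 11 regions, all with negative log2 fold changes in both comparisons. They summed to 88.6, 196 and 132 CPM in DMSO, 52.7, 41.1 and 39.3 under osimertinib DTP and then 36.4, 46.8 and 28.2 under osimertinib DTP + AZD5153. No treated library reached the lowest DMSO library. In osimertinib DTP 3 regions were called lower and in osimertinib DTP + AZD5153 6, none of them at its 2 promoter regions. Without DMSO replicate 2 these counts were 0 and 3. At chr3:134038709-134039210 the level was 5.71, 9.71 and 11.3 CPM in DMSO, 0.860, 0.835 and 1.31 under osimertinib DTP and then 0.601, 0.814 and 2.32 under osimertinib DTP + AZD5153, with log2 fold changes of -3.13 (adjusted p = 0.00773) and -2.90 (adjusted p = 0.00661). The first was lost without DMSO replicate 2 or osimertinib DTP replicate 2 (adjusted p = 0.0590 and 0.0518), and the second in none of the 9 fits.

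SLCO3A1, an organic anion transporter also known to carry prostaglandins, had 18 regions, with 2 called lower in osimertinib DTP, against 4 under osimertinib DTP + AZD5153. At chr15:91890790-91891291 the level was 5.08, 10.4 and 6.34 CPM in DMSO, 1.43, 2.09 and 2.11 under osimertinib DTP and then 0.902, 0.465 and 0.193 under osimertinib DTP + AZD5153, by -1.95 (adjusted p = 0.0435) and -3.68 ± 0.67 (adjusted p = 0.00237). The first was lost with the replicate block (adjusted p = 0.0515) and without any DMSO or osimertinib DTP replicate (up to 0.247, without DMSO replicate 2). Without TMM scaling none of its regions was called in osimertinib DTP, against 5 under osimertinib DTP + AZD5153. SLC16A11, a further monocarboxylate carrier, fell at chr17:7049138-7049639, -5215 bp from the nearest start, from 4.26, 10.8 and 7.34 CPM in DMSO to 0.765, 0.278 and 0.504 under osimertinib DTP and then 0.902, 0.349 and 0 under osimertinib DTP + AZD5153. The log2 fold changes there were -3.79 ± 0.77 (adjusted p = 0.00737) and -3.97 ± 0.79 (adjusted p = 0.00377), the first lost without DMSO replicate 2 or osimertinib DTP replicate 2 or 3 (adjusted p = 0.0664, 0.0531 and 0.0501).

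**Figure D4:**
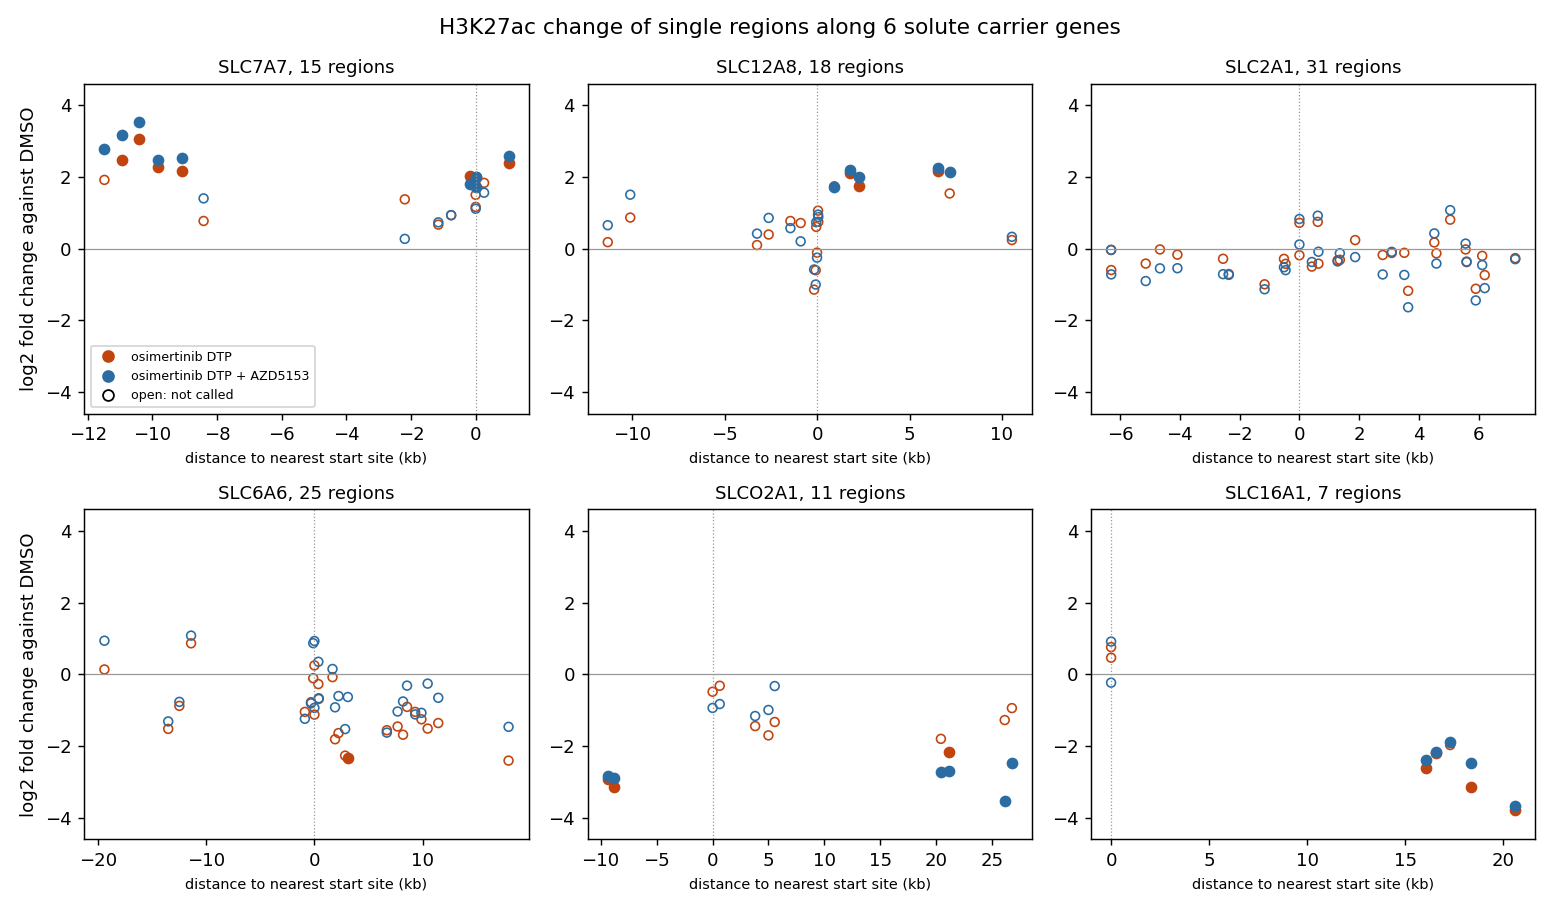
Log2 fold change against DMSO of each region of 6 solute carrier genes by its distance to the nearest start site in kb (negative is upstream; the horizontal scales differ between panels). Orange is osimertinib DTP, blue is osimertinib DTP + AZD5153 and filled points are called at an adjusted p under 0.05. All 15 SLC7A7 regions lie above 0, no SLC2A1 region is called, and the distal cluster of SLC16A1 lies below -1.8 while its promoters are not called.

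Carriers of organic cations and amines had no region called higher and 1 lower under osimertinib DTP, against 4 lower under osimertinib DTP + AZD5153, of 22. These were 4.55 and 18.2% of the class, beside 14.2 and 21.8% called of all annotated regions. SLC6A2, the noradrenaline transporter, fell at -2507 bp from 10.2, 21.9 and 12.7 CPM in DMSO and 9.56, 7.79 and 5.04 in osimertinib DTP to 0.701, 1.63 and 0.966 in osimertinib DTP + AZD5153. The latter group stood apart from both others, with a log2 fold change of -3.74 ± 0.63 against DMSO (adjusted p = 0.00176, at most 0.0192 without any 1 library), while osimertinib DTP was not called against DMSO (adjusted p = 0.272). SLC22A16, a carnitine carrier, fell in 3 distal regions in osimertinib DTP + AZD5153 and in 1 of them in osimertinib DTP (-1.81, adjusted p = 0.0428, lost in all fits without 1 library but those without osimertinib DTP + AZD5153 replicate 2 or 3, with adjusted p up to 0.185). The other calls of SLC22A16 were lost without DMSO replicate 2 or 3 or osimertinib DTP + AZD5153 replicate 1, at 2 of the 3 regions (adjusted p up to 0.138), and at 1 of these also without DMSO replicate 1 (0.0544).

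Among carriers of other or unknown substrates, 5 regions were higher and 2 lower of 53 in osimertinib DTP, against 10 higher and 5 lower under osimertinib DTP + AZD5153. These were 13.2 and 28.3% of the class, beside 14.2 and 21.8% called of all annotated regions. SLC16A9, a carnitine carrier, was called higher at 3 promoter regions in osimertinib DTP + AZD5153. The one over the window printed above held 2.99, 5.27 and 5.43 CPM in DMSO, 6.88, 31.2 and 6.04 under osimertinib DTP and then 16.7, 11.4 and 44.8 under osimertinib DTP + AZD5153. The adjusted p was 0.138 for the osimertinib DTP group. For the osimertinib DTP + AZD5153 group the log2 fold change was 2.41 ± 0.72 (adjusted p = 0.0289), a call lost without any DMSO replicate (adjusted p up to 0.122) that stood without the promoter-rich osimertinib DTP + AZD5153 replicate 3 (adjusted p = 0.0324). The other 2 SLC16A9 promoter calls were lost without any DMSO replicate and without that library (adjusted p = 0.0527 and 0.162), the second also without osimertinib DTP replicate 3 (0.0608). SLC16A12, a creatine carrier, was the gene with calls in both directions. An intron at 18736 bp rose by 2.37 (adjusted p = 0.0392) and 2.78 (adjusted p = 0.0136), and a promoter region, 20633 bp from the RefSeq start, fell by -2.11 (adjusted p = 0.0382) and -2.24 (adjusted p = 0.0220). In osimertinib DTP both were lost without any 1 DMSO or osimertinib DTP replicate (adjusted p up to 0.202), and under osimertinib DTP + AZD5153 without DMSO replicate 2 or 3 (up to 0.0893 and 0.109), the promoter also without osimertinib DTP + AZD5153 replicate 1 (0.0774). SLC19A1, the folate carrier, fell in an intron at -7249 bp by -2.64 (adjusted p = 0.0278) and -2.15 (adjusted p = 0.0458), with the first lost without DMSO replicate 2 or 3 or any osimertinib DTP replicate (adjusted p up to 0.130) and the second in all fits without 1 library but those without osimertinib DTP replicate 2 or osimertinib DTP + AZD5153 replicate 3 (up to 0.182). SLC22A23, an orphan carrier, rose in a distal region at -66090 bp by 3.13 ± 0.67 (adjusted p = 0.00941, lost without DMSO replicate 2 or 3 at 0.0823 and 0.0698) and 3.39 ± 0.68 (adjusted p = 0.00395).

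Promoters of the main carriers were mostly acetylated in every library and mostly not called. Of 24 main carriers with a promoter region within 1 kb, SLC16A7 was called in both comparisons and SLC1A4 in osimertinib DTP + AZD5153, and the others in neither. Some of these regions lay at a start other than the RefSeq one, at 92537 bp from it for SLC16A7 and 48199 bp for SLC19A1. Across genes with regions both at a promoter and beyond it, 45 in all, 16 had a call only beyond the promoter in osimertinib DTP, 1 only at the promoter and 5 at both. In osimertinib DTP + AZD5153 these counts were 19, 3 and 8. Since 4.63 and 8.5% of all annotated promoters and 19.6 and 29.3% of regions beyond were called, a lower share at promoters than beyond them was seen over all annotated regions as well, and the difference between promoters and other regions was not tested.

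Adding AZD5153 was compared directly with osimertinib DTP. No solute carrier region was called, and none of all tested regions was (0.0%). At an unadjusted p under 0.05 there were 16 of the 506 member regions, beside 7013 of all 157919 tested regions. The lowest adjusted p of a member was 0.710, at the SLC6A2 region described above. DESeq2 called 1 member lower, with 21 higher and 73 lower over all 157919 tested regions. With limma's voom and library quality weights 7 members were called higher and 7 lower, with 2564 higher and 2442 lower over all tested regions. Without replicate 3 of osimertinib DTP + AZD5153, edgeR again called no member, with 103 higher and 95 lower over all 161758 regions then tested. There 95 of the 506 members had an unadjusted p under 0.05, beside 32444 of all 161758 regions, so the members did not stand out. The regions that follow were named after their values were seen. In the SLCO3A1 intron at 11556 bp the levels were 12.9, 9.46 and 15.0 CPM under osimertinib DTP and then 4.21, 3.96 and 2.32 under osimertinib DTP + AZD5153. At the SLC6A6 intron at 3090 bp, lower than DMSO in osimertinib DTP, the level was 2.96, 0.696 and 2.01 CPM under osimertinib DTP and then 7.21, 6.17 and 5.22 under osimertinib DTP + AZD5153. In neither region did the groups overlap, and neither is a call.

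Genes that work with these carriers, such as partner chains, sodium pump subunits, regulating kinases and enzymes of the transported substrates, had 172 regions in 19 genes, while CA2 and CA9 had none. Of these, 12 were called higher and 11 lower in osimertinib DTP, beside 14.2% of all annotated regions called in either direction. Under osimertinib DTP + AZD5153, 26 were called higher and 14 lower, beside 21.8%. At promoters, GLUL, the enzyme that makes glutamine, rose by 2.54 ± 0.74 (adjusted p = 0.0372) and 2.38 ± 0.74 (adjusted p = 0.0338), but without a call under the replicate block (adjusted p = 0.107 and 0.0799) or without any 1 DMSO replicate (up to 0.162 and 0.135), and in osimertinib DTP without osimertinib DTP replicate 2 or 3 (0.268 and 0.0562). Without the promoter-rich osimertinib DTP + AZD5153 replicate 3 the second GLUL call stood (adjusted p = 0.0409). WNK4, a kinase that regulates chloride cotransporters, fell by -1.83 ± 0.54 (adjusted p = 0.0358) and -1.98 ± 0.54 (adjusted p = 0.0188). Both WNK4 calls were lost without DMSO replicate 2 or 3, the first also without DMSO replicate 1 or any osimertinib DTP replicate and the second without osimertinib DTP + AZD5153 replicate 1 or 2 (up to 0.162 and 0.0916). EMB, a partner chain of lactate carriers, rose in osimertinib DTP + AZD5153 by 1.94 ± 0.64 (adjusted p = 0.0432, lost without any DMSO replicate, osimertinib DTP replicate 1 or 3 or osimertinib DTP + AZD5153 replicate 1, up to 0.191). BSG, the partner of SLC16A1 and SLC16A3, was not called at its promoter (adjusted p = 0.395 and 0.277).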

How the data were processed

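The authors deposited read counts per region, not normalized, for 169637 regions (502 bp each) in 9 H3K27ac libraries and 1 pooled input, and a table that gives 67387 of these regions a gene symbol, a position class and a distance to the nearest start. The counts of shared regions were identical in both tables. The deposited peak lists, 1 per H3K27ac library, give fold enrichment as a ratio. They were used here only to count the libraries with a peak over a region. The submitters' processing notes name BWA 0.7.17, MACS2 2.2.6, featureCounts 2.0.0, ChIPseeker 1.29.1 and the build hg38. Groups were taken from sample titles.

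The test was edgeR 4.0.16, run in R 4.3.3 with limma 3.58.1. Regions were filtered with filterByExpr (minimum count 10), which kept 157919 and all 506 members, libraries were scaled with TMM, and 1 quasi-likelihood model over the 3 groups gave 3 comparisons, adjusted by Benjamini-Hochberg over all tested regions with a threshold of 0.05. CPM are counts-per-million after TMM scaling of the library size, and raw CPM use the library total without TMM, and errors of log2 fold changes are the SE of the fit. The fit was tested on simulated data. Members, substrate classes, gene lists and tests were chosen with earlier results of these data known. Named regions are, per comparison and class, up to 3 higher and 3 lower called regions with groups that do not overlap, 1 per gene, plus the highest promoter region of main carriers and the 5 genes with the most regions. Other regions were named after their values were seen. Some items are counted but not reported by name here.

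Alternatives were DESeq2 1.42.0, voom with library quality weights, no TMM scaling, a loess offset (span 0.3), no filter, annotated regions alone, the libraries of both groups alone, the replicate number as a block, a threshold of 0.01, and fits without each library in turn. Deviations from the group means of libraries with the same replicate number correlated at 0.334, 0.355 and 0.324 between DMSO and osimertinib DTP. Between DMSO and osimertinib DTP + AZD5153 they correlated at -0.018, 0.553 and 0.362. The labels do not say what the replicate number marks, so whether it pairs libraries is not known. The main fit therefore had no block in any comparison, and the block is given as an alternative. With 3 libraries a group an exact permutation test of a single value cannot go below p = 0.10, so none was run. Intervals of counts were not needed, and errors cover the spread between replicates of 1 cell line.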

Additional observations from a re-analysis of the deposited data

How the results depend on the processing

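Of the solute carrier regions called in osimertinib DTP against DMSO, 68 in the fit reported, the count was 17 at an adjusted p under 0.01, 151 with only the libraries of both groups, 180 with voom and library quality weights, and 114 with DESeq2. Leaving out 1 library gave 2 (without DMSO replicate 2) to 159 (without osimertinib DTP + AZD5153 replicate 3). In osimertinib DTP + AZD5153 against DMSO, with 110, it was 49 at the stricter threshold and 259 with voom, and 36 to 183 when leaving out the same 2 libraries. For osimertinib DTP + AZD5153 against osimertinib DTP, with 0, voom called 14 and DESeq2 1, and leaving out 1 library called 0 to 0. The other alternatives stayed within 1.5 times. With the replicate number as a block the counts were 66, 0 and 108. The block kept 61 of the 68 and 99 of the 110 calls, and beside the regions for which it is given above it ended those of SLC8A1 (adjusted p = 0.0653) and of an SLC4A4 region (0.0596) in osimertinib DTP, and of SLC8A1 (0.0638), SLC16A9 at 234 bp (adjusted p = 0.0736), SLC19A3 (0.101), SLC2A9 (0.0503), 2 SLC16A12 regions (0.0517 and 0.0550) and SLCO4A1 (0.0809) under osimertinib DTP + AZD5153. Over 187 log2 fold changes, those of all called solute carrier regions and of the other regions whose fold is printed, no sign changed in 1683 values from fits without 1 library or in 1683 others. A call was lost in 577 and 216 of these and gained in 3 and 7. Because almost all of the 187 were chosen as called, a kept sign is no separate support. Why single DMSO libraries carry so many calls was not tested. The highest count of a member region in a library was 852, and the median over members was 12 in the input, beside 10 over all regions. Changes at regions with few counts in DMSO, such as the intron of SLC4A4, are the least precise. With a boundary of 3 kb, 21 of 229 promoter and 47 of 277 other regions were called in osimertinib DTP, with 34 and 76 under osimertinib DTP + AZD5153.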
